A study of Mus musculus with 6 samples.

Results

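The members described here are the genes of 5 families named by their symbols, the matrix metalloproteinases (Mmp), the ADAM and ADAMTS metalloproteinases (Adam, Adamts), the ADAMTS-like proteins (Adamtsl) and the tissue inhibitors of metalloproteinases (Timp). The name patterns found 67 of the 33965 genes in the table, 19 Mmp, 20 Adam, 19 Adamts, 5 Adamtsl and 4 Timp genes. The patterns read symbols only, and earlier results of these data were known when the families were chosen. RNA was sequenced from 6 tumors of MC38, a mouse colon carcinoma cell line. The tumors grew under the skin of female C57BL/6 mice bought at 6 weeks of age. The 3 control tumors came from mice given PBS and the 3 others from mice given GB2. GB2 is a prodrug injected into a vein. It holds MSA-2, an agonist of STING, and artesunate, used as a TREM2 inhibitor, joined by a disulfide bond that glutathione opens. All 6 tumors grew from the same line at the same site, and the labels name no genetic change in line or host. Beyond a tumor number the labels do not say whether the tumors came from separate mice or cages, so the p-values measure only the spread between these 6 samples.

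MMPs are secreted or membrane-bound zinc proteases that cut collagens, proteoglycans and other matrix proteins. ADAMs sit in the cell membrane and mostly release the outer parts of cytokines, receptors and adhesion molecules, while ADAMTS enzymes are secreted and process procollagens and large proteoglycans. TIMPs bind the active site of these enzymes, and the ratio of protease to inhibitor is a common description of matrix turnover. In tumors many of these genes are expressed by fibroblasts, macrophages, neutrophils and endothelial cells as well as by the cancer cells.

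Libraries held 64764405 to 83690056 estimated counts, with about 4 counts to a read pair, and every GB2 library was larger than every PBS library. Levels are therefore given as CPM, counts scaled to library size times its TMM factor, or as FPKM, which is also divided by transcript length, where genes are compared with one another. On the first principal component, 34.0% of the variance, PBS tumor 1 stood apart from the other tumors. The TMM factors ran from 0.914 (PBS tumor 1) to 1.04, so the scaling raises the CPM of PBS tumor 1 the most. The markers of epithelium, which the carcinoma line should carry, were low: the summed CPM of 7 epithelial genes was 3.00 to 6.10 in PBS and 4.13 to 8.52 in GB2 tumors, and 5 of the 7 could be tested. In bulk samples, more cells of a type and more RNA per cell cannot be told apart.

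Of the 67 members, 51 had enough counts for the edgeR quasi-likelihood test, 15 Mmp, 14 Adam, 14 Adamts, 4 Adamtsl and 4 Timp genes. The other 16 were Mmp16, Mmp21, Mmp24, Mmp25, Adam5, Adam7, Adam21, Adam28, Adam30, Adam32, Adamts3, Adamts8, Adamts16, Adamts18, Adamts19 and Adamtsl3, of which Mmp21 and Adam28 had a count of 0 in all 6 tumors. Mmp8, Mmp10, Mmp27 and Adamts17 had enough counts only through the GB2 tumors, as did 1261 of all 19602 genes tested, so the filter itself favors a higher GB2 value in these 4. At an adjusted p under 0.05 (Benjamini-Hochberg over all 19602 genes) and a fold change of at least 2, edgeR called 0 genes (0%), members included. The smallest adjusted p of any gene was 0.166, 1360 genes had an unadjusted p under 0.05, and 10 of these were members.

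Since no gene passed, the members are described by looser limits, a fold change of at least 2 at an unadjusted p under 0.05, which make no call. At these limits 8 of the 51 tested members were higher in GB2 tumors, Mmp9, Mmp13, Mmp19, Mmp3, Mmp2, Adam8, Adamts9 and Adamts15, against 3.74% of all genes tested. No member was lower at these limits, against 0.918% of all genes tested. In 14 of the 51 all GB2 tumors were higher than all PBS tumors, against 8.61% of all genes. Leaving out genes that passed the filter only through 1 group, among them Mmp8, Mmp27 and Adamts17, the count was 11 of 47, against 7.74% of 17685 genes. In none were all GB2 tumors lower, against 6.68% of all genes. DESeq2, run as a second tool on the same counts, gave an adjusted p for 61 members. At the limits first used for edgeR, with an adjusted p under 0.05, it called 6 of these 61 higher (Mmp9, Mmp13, Mmp19, Mmp2, Adam8 and Adamts9), against 1.45% of all genes with an adjusted p. Of the 51 log2 fold changes, 36 were above 0, compared with 9475 of 19602 over all genes, whose median was -0.02. Without the genes that passed through 1 group only, 32 of 47 were above 0, compared with 8351 of 17685.

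**Figure D1:**
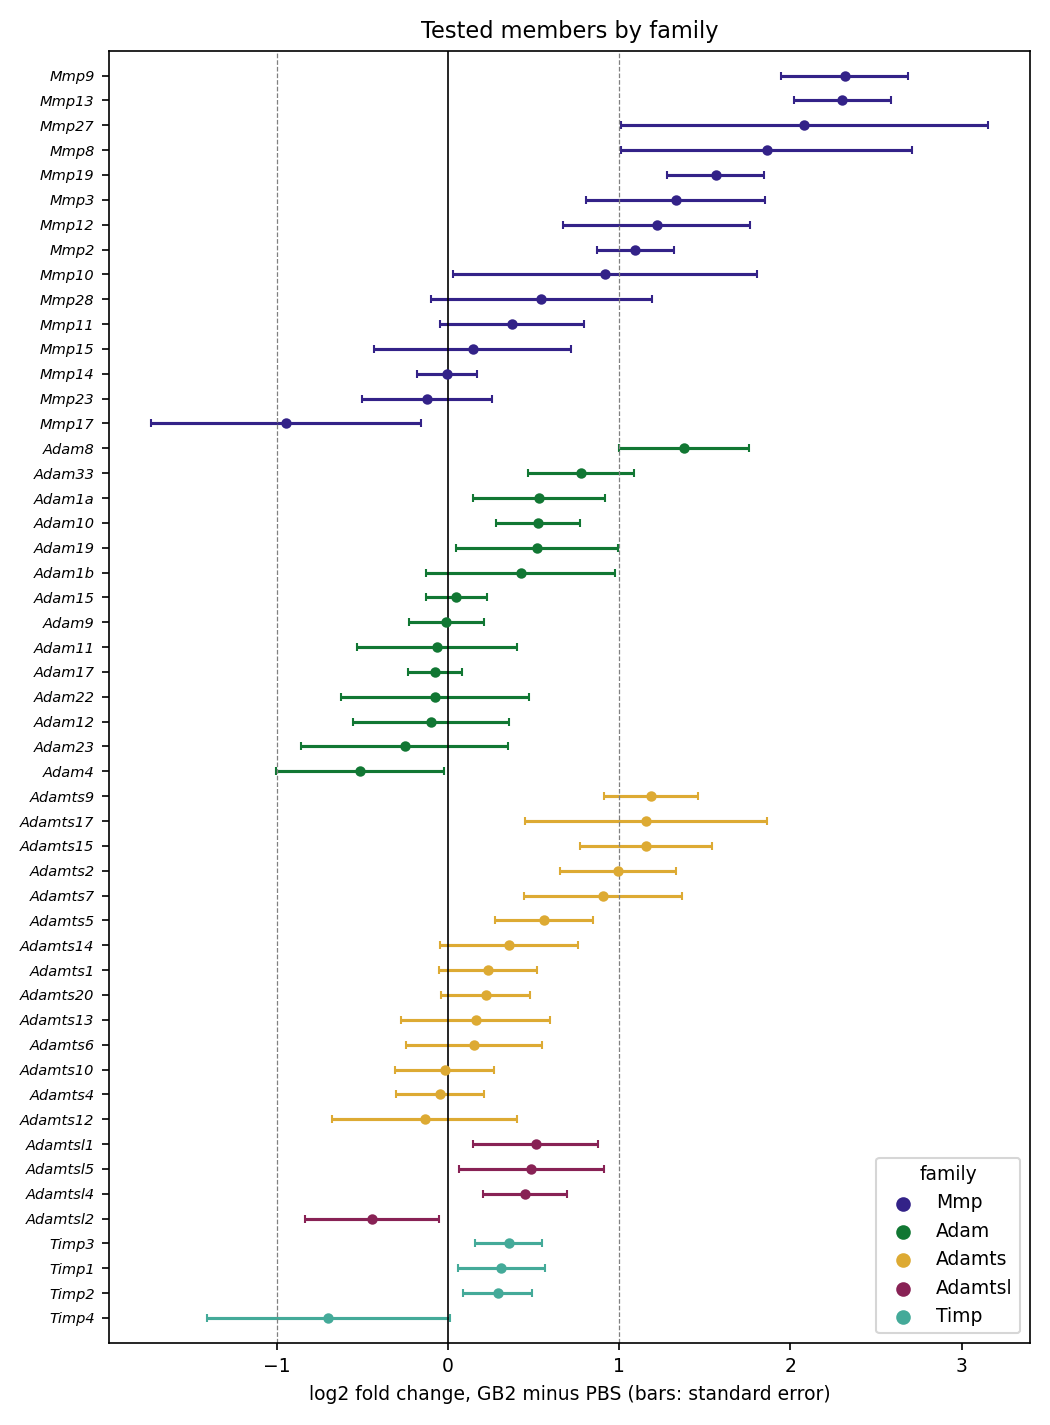
The log2 fold change (GB2 minus PBS, x axis) of each of the 51 tested members, grouped by family, with bars for the standard error and dashed lines at a fold change of 2 in either direction. Mmp9 (2.32) and Mmp13 (2.30) stand at the top, the Adam genes run from -0.51 to 1.38, and Mmp17 (-0.95) is the lowest value.

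The families differed in their medians, given as a description with no test. The median log2 fold change was 1.10 over the 15 tested Mmp genes, 0.02 over the 14 Adam genes, 0.30 over the 14 Adamts genes, 0.47 over the 4 Adamtsl genes and 0.30 over the 4 Timp genes. The Mmp median includes Mmp8, Mmp10 and Mmp27, which were testable only through the GB2 tumors. With limma on log2(FPKM + 1) it was 0.32, where the added 1 shrinks the fold changes of genes at low FPKM.

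The gelatinases, MMPs that cut denatured collagen and the type IV collagen of basement membranes, were both higher in every GB2 tumor. Mmp9 (ENSMUSG00000017737, chromosome 2), a gelatinase best known from neutrophils and macrophages, stood at 3.31, 1.32 and 2.14 CPM in PBS tumors 1 to 3 and at 9.48, 12.4 and 11.8 CPM in GB2 tumors 1 to 3. The groups did not overlap, and the lowest GB2 tumor was well above the highest PBS tumor. Its log2 fold change was 2.32 ± 0.37 (SE), with an adjusted p of 0.186 in edgeR. Mmp2 (ENSMUSG00000031740, chromosome 8), the gelatinase of fibroblasts and other stromal cells, stood at 9.33, 12.9 and 10.8 CPM in PBS and at 22.6, 20.3 and 27.8 CPM in GB2 tumors. Here too the groups were apart, with a log2 fold change of 1.10 ± 0.22 and an edgeR adjusted p of 0.234. Part of Mmp2 overlaps Gm45472 on the opposite strand, whose log2 fold change was -0.14. Without GB2 tumor 3, or with limma on log2(FPKM + 1), Mmp2 no longer passed the unadjusted limits. In that limma fit the added 1 brings its fold change under 2. For any single gene an exact two-sided permutation test of 3 against 3 tumors cannot go below p = 0.1, the value that Mmp9, Mmp2 and every other member with separate groups reach.

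Among the collagenases, which cleave intact fibrillar collagen, Mmp13 (ENSMUSG00000050578, chromosome 9) had nearly all of the counts. Its level was 1.49, 1.80 and 1.46 CPM in PBS tumors and 7.36, 6.54 and 9.56 CPM in GB2 tumors. All 3 PBS tumors were close together and all 3 GB2 tumors were several times higher. The log2 fold change was 2.30 ± 0.28, with an adjusted p of 0.186 in edgeR. Mmp8, the neutrophil collagenase, was close to the limit of detection, with counts of 19, 4 and 4 in PBS and 69, 30 and 33 in GB2 tumors. Its groups did not overlap, but its log2 fold change of 1.86 ± 0.85 had an unadjusted p of 0.0615 in edgeR. With 1 tumor left out this log2 fold change ran from 1.38 to 3.18, and without PBS tumor 1 Mmp8 passed the unadjusted limits. The mouse Mmp1 genes named in the collagenase list were not among the genes analysed here.

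The stromelysins, which cut proteoglycans and activate other MMP precursors, were uneven. Mmp3 (ENSMUSG00000043613, chromosome 9) stood at 7.91, 1.86 and 2.87 CPM in PBS and at 11.8, 8.52 and 11.5 CPM in GB2 tumors. PBS tumor 1 lay far above the other PBS tumors and only just under the lowest GB2 tumor. The log2 fold change was 1.33 ± 0.52, with an adjusted p of 0.679 in edgeR. Without PBS tumor 2, PBS tumor 3, GB2 tumor 1 or GB2 tumor 3 Mmp3 no longer passed the unadjusted limits. Without PBS tumor 1 its log2 fold change was 2.18. Mmp10, the second stromelysin, had overlapping groups, with counts of 76, 27 and 8 in PBS and 165, 79 and 37 in GB2 tumors. In both groups its tumor 1 was the highest of the 3, and its log2 fold change was 0.92 ± 0.89. With 1 tumor left out this value ran from 0.23 to 2.17, and without PBS tumor 1 Mmp10 passed the unadjusted limits. Mmp11, a stromelysin of stromal cells that acts poorly on matrix proteins, also overlapped, at 2.62, 5.09 and 8.53 CPM in PBS and 6.60, 8.33 and 6.16 CPM in GB2 tumors.

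Of the other secreted MMPs, Mmp19 (ENSMUSG00000025355, chromosome 10), which cuts basement membrane proteins, differed most clearly. It stood at 2.23, 2.24 and 2.83 CPM in PBS and at 8.16, 7.97 and 5.49 CPM in GB2 tumors. The groups were apart, and the log2 fold change was 1.57 ± 0.28 with an adjusted p of 0.190 in edgeR. With limma on log2(FPKM + 1) Mmp19 no longer passed the unadjusted limits, as the added 1 brings its fold change under 2. Part of Mmp19 overlaps Tmem198b on the opposite strand, whose log2 fold change was 0.06. Mmp12, the elastase of macrophages, was at 7.19, 12.2 and 2.42 CPM in PBS and at 15.9, 22.9 and 11.9 CPM in GB2 tumors. GB2 tumor 3 fell just under PBS tumor 2, so the groups overlapped, and the log2 fold change of 1.22 ± 0.55 had an unadjusted p of 0.0585 in edgeR. Mmp27, a little studied MMP, had counts of 8, 15 and 0 in PBS and 64, 28 and 33 in GB2 tumors. These few reads gave a log2 fold change of 2.08 ± 1.07 and an unadjusted p of 0.0902 in edgeR. Mmp28, an MMP known from skin, and Mmp23 had overlapping groups, with log2 fold changes of 0.55 ± 0.65 and -0.12 ± 0.38.

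The membrane-type MMPs, which are anchored to the cell surface and activate other MMP precursors, number 6 here, of which 3 could be tested and 0 passed the unadjusted limits. Of the untested, Mmp25 stood at 0, 0.114 and 0.0566 CPM in PBS and at 0.429, 0.108 and 0.306 CPM in GB2 tumors, with overlapping groups. Mmp14, the activator of the Mmp2 precursor, was by far the most abundant MMP at a mean of 29.2 FPKM over the 6 tumors. It stood at 197, 155 and 196 CPM in PBS and at 201, 181 and 164 CPM in GB2 tumors. Both groups covered the same range, and its log2 fold change was -0.005 ± 0.18, so a fold change of 2 lies far outside its standard error. The sign of so small a value turned under 4 other settings, DESeq2 among them, and in 4 of the 6 fits without 1 tumor. Mmp15 also overlapped, with a log2 fold change of 0.14 ± 0.57. Mmp17 had the lowest log2 fold change of the tested members, -0.95 ± 0.79, and this value rests on PBS tumor 3. Its levels were 0.778, 1.83 and 8.30 CPM in PBS and 2.43, 1.35 and 1.89 CPM in GB2 tumors, and without PBS tumor 3 the log2 fold change was 0.53.

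**Figure D2:**
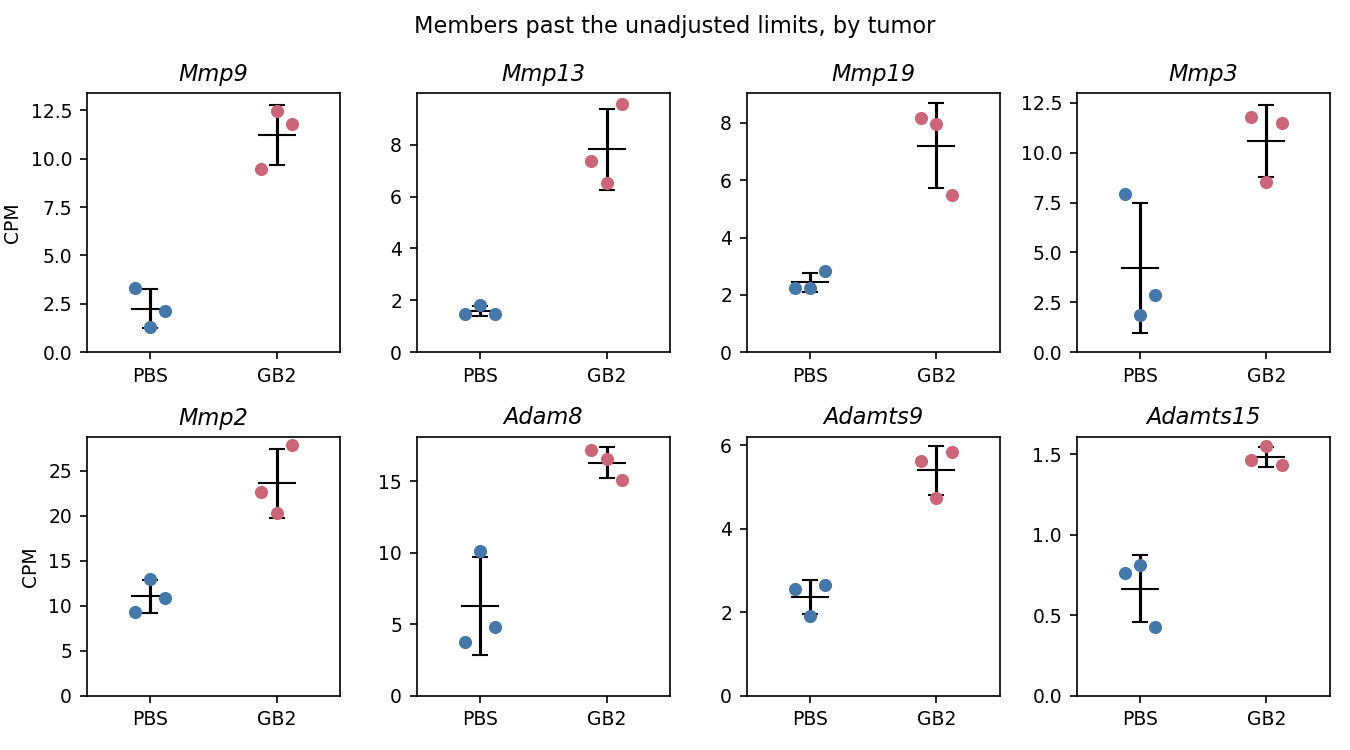
CPM of the 8 members past the unadjusted limits, 1 point for each tumor, with a horizontal line for the group mean and a bar for the SD (3 tumors a group). In every panel the 3 GB2 tumors lie above the 3 PBS tumors, and PBS tumor 1 in Mmp3 and PBS tumor 2 in Adam8 (10.2 CPM) lie closest to them.

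Of the Mmp genes described, 6 follow one another in the table on chromosome 9, in the order Mmp13, Mmp12, Mmp3, Mmp10, Mmp8 and Mmp27. Genes absent from the table, the mouse Mmp1 genes among them, are left out of this order. In the positions of the table they span 308.9 kb and no other gene of the table starts between them. All 6 had a log2 fold change above 0, from 0.92 to 2.30, against 48.3% of all genes tested. Of the 6 only Mmp13 and Mmp3 passed the unadjusted limits, against 3.74% of all genes tested in the higher direction. Since Mmp8, Mmp10 and Mmp27 had enough counts only through the GB2 tumors, their sign was favored by the filter and adds nothing to the shared direction. The 4 nearest tested genes on either side of the cluster were Dync2h1 (0.37 ± 0.28), Dcun1d5 (-0.52 ± 0.33), Gm10709 (0.31 ± 0.31) and Tmem123 (0.15 ± 0.17), none of which passed. Any nearer gene with too few counts for the test was passed over. Neighbouring genes are not independent of one another, and the difference between the cluster and its flanks was not tested.

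**Figure D3:**
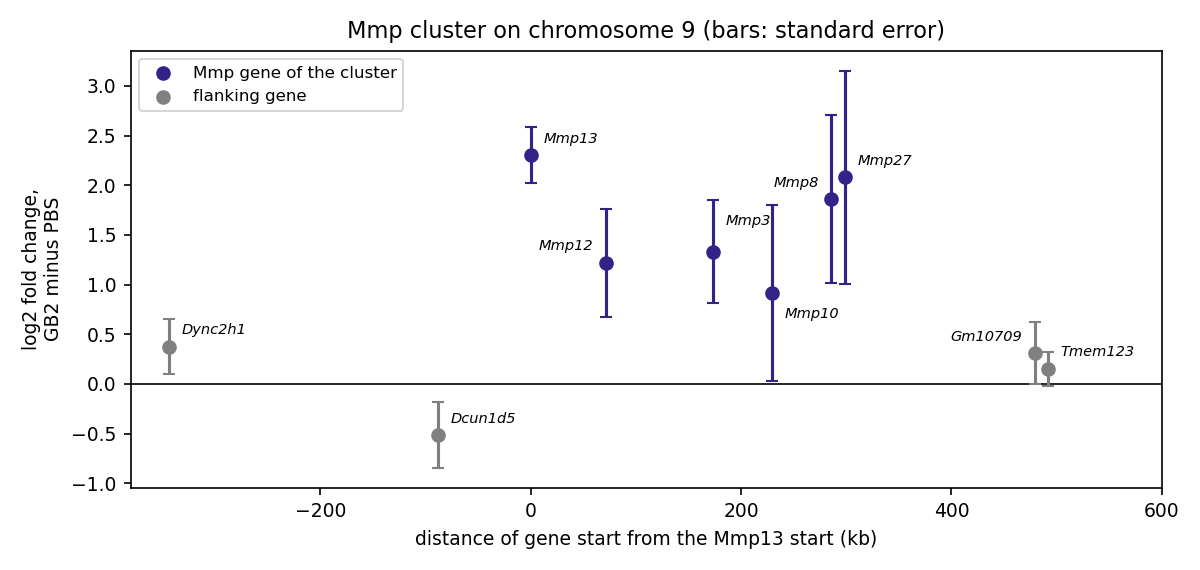
The log2 fold change (GB2 minus PBS, y axis, bars for the standard error) against the distance of each gene's start from that of Mmp13 in kb. The 6 Mmp genes of the cluster lie between 0.92 and 2.30, while Mmp10, Mmp8 and Mmp27 have wide bars. The 4 flanking genes, the nearest that were tested, lie between -0.52 and 0.37.

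The bases before the start of these 6 genes are shown because they are neighbours with Mmp13 and Mmp3 among them, and because the AP-1 motif before several MMP genes is a textbook feature of the family. The sequences are the 120 bases before the RefSeq start on the plus strand of GRCm38.p6, 5′ to 3′, with each match to TGANTCA in capitals. TGANTCA reads the same on both strands.

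Mmp13 (chr9:7272394-7272513): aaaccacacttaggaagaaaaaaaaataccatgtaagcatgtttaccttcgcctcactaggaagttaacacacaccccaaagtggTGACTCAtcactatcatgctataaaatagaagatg
Mmp3 (chr9:7445702-7445821): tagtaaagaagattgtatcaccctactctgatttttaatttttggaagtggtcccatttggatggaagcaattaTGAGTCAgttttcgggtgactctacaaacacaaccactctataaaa
Mmp10 (chr9:7502222-7502341): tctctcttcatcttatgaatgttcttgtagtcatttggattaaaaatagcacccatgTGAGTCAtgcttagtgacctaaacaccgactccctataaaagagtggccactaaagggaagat
Mmp12 (chr9:7347254-7347373): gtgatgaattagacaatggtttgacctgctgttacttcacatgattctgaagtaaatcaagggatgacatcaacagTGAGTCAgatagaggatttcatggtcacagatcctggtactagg
Mmp8 (chr9:7558309-7558428): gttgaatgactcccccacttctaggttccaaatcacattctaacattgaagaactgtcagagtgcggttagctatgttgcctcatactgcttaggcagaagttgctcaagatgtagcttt
Mmp27 (chr9:7571276-7571395): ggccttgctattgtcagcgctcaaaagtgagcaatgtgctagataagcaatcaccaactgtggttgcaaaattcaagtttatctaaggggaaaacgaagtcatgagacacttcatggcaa

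Mmp13 holds TGACTCA with its first base 35 bases before the start, and Mmp3, Mmp10 and Mmp12 hold TGAGTCA 46, 63 and 44 bases before it. For Mmp12 the match precedes the second of 2 RefSeq starts, and the window of the first has none. The windows of Mmp8 and Mmp27 do not hold these letters. Over all 32851 promoters in the RefSeq table, 3.41% hold the motif in the 120 bases before the start and 6.75% in the 250 bases before it. RefSeq promoters were matched for 42 of the 67 members, and 4 held the motif in the 120 bases, with Adam19 added in the 250 bases. Of these 5 genes only Mmp13 and Mmp3 passed the unadjusted limits. A match describes the sequence only. Mmp9, Mmp2, Mmp19 and Adamts15 had no promoter in the table.

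The 20 Adam genes had the largest summed FPKM of the 5 families. Of the 14 tested, 2 had all GB2 tumors above all PBS tumors, against 8.61% of all genes, which is too few to set the family apart. Adam8 (ENSMUSG00000025473, chromosome 7), a sheddase of myeloid cells, was the member of the family past the unadjusted limits, at 3.79, 10.2 and 4.82 CPM in PBS and at 17.2, 16.6 and 15.1 CPM in GB2 tumors. The 3 GB2 tumors agree closely, and PBS tumor 2 lies between them and the other PBS tumors. The log2 fold change was 1.38 ± 0.38, with an adjusted p of 0.376 in edgeR. The main sheddases did not pass. Adam10, which cuts Notch receptors and cadherins, stood at 113, 120 and 153 CPM in PBS and at 174, 243 and 139 CPM in GB2 tumors, with a log2 fold change of 0.53 ± 0.25. Adam17, which releases TNF and EGF receptor ligands, stood at 103, 92.7 and 85.2 CPM in PBS and at 90.2, 81.8 and 94.4 CPM in GB2 tumors. Its 6 tumors were close together, and its log2 fold change was -0.07 ± 0.16.

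Adam9, another sheddase and the most abundant ADAM at 34.6 FPKM, had a log2 fold change of -0.008 ± 0.22. Adam12, a sheddase known from muscle and stroma, varied most among the abundant ADAMs, at 106, 260 and 429 CPM in PBS and at 218, 216 and 309 CPM in GB2 tumors. The whole GB2 range lies within the PBS range, with a log2 fold change of -0.10 ± 0.45. Adam4 was the lowest of the family at -0.51 ± 0.49, and it shares bases on the same strand with Cox16, whose mean count was 2272 against 48.2 for Adam4, so its reads may be misassigned. Adam11, Adam22 and Adam23, which lack the zinc-binding site and act in adhesion, lay between -0.25 and -0.06. Of the 14 tested Adam genes 7 had a log2 fold change above 0 and 7 below. Besides Adam8, Adam33, singled out after its values were seen, had separate groups, at 2.08, 1.89 and 1.33 CPM in PBS and 3.42, 2.81 and 2.85 CPM in GB2 tumors. Its log2 fold change of 0.78 ± 0.31 was under the fold limit, with an unadjusted p of 0.0375 in edgeR.

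Among the ADAMTS proteases, 2 of the 6 tested proteoglycanases, which cut aggrecan, versican and related proteoglycans, were higher at the unadjusted limits, against 3.74% of all genes tested. Adamts9 (ENSMUSG00000030022, chromosome 6), a versican-cutting enzyme also known from blood vessels, stood at 2.55, 1.90 and 2.65 CPM in PBS and at 5.62, 4.73 and 5.85 CPM in GB2 tumors. The groups were apart, with a log2 fold change of 1.19 ± 0.27 and an adjusted p of 0.276 in edgeR. In both limma fits on FPKM it no longer passed the unadjusted limits. Its mean was 0.145 FPKM in PBS and 0.350 FPKM in GB2 tumors. At such levels the added 1 or 0.1 keeps its fold change under 2, so these fits cannot test it at that limit. Part of Adamts9 overlaps 9530026P05Rik on the opposite strand, whose log2 fold change was 0.88, at a mean count of 47.2 against 306 for Adamts9. Adamts15 (ENSMUSG00000033453, chromosome 9) stood at 0.761, 0.809 and 0.424 CPM in PBS and at 1.46, 1.55 and 1.44 CPM in GB2 tumors. Its groups were also apart, with a log2 fold change of 1.16 ± 0.39 and an adjusted p of 0.560 in edgeR, but it failed the unadjusted limits when PBS tumor 3 or GB2 tumor 2 was left out.

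The abundant members of this group did not differ beyond their spread. Adamts1, the most abundant member of all at a mean of 47.5 FPKM, stood at 180, 226 and 315 CPM in PBS and at 336, 317 and 196 CPM in GB2 tumors. These groups overlapped widely, with a log2 fold change of 0.24 ± 0.29. Adamts4 and Adamts5, the main aggrecanases of cartilage, had log2 fold changes of -0.05 ± 0.26 and 0.56 ± 0.29. Neither passed. The procollagen N-proteinase Adamts2, which trims fibrillar procollagens, lay just outside the fold limit with a log2 fold change of 0.996 ± 0.34 and an unadjusted p of 0.0199 in edgeR. It was singled out after its values were seen, and its levels were 4.75, 10.7 and 5.63 CPM in PBS and 14.0, 12.6 and 15.5 CPM in GB2 tumors, with separate groups. Just inside the limit lay Mmp2, at 1.10.

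Of the other ADAMTS genes none of the 6 tested passed. Adamts10, an ADAMTS of the fibrillin microfibrils, and Adamts12, which acts in cartilage and stroma, had log2 fold changes of -0.02 ± 0.29 and -0.14 ± 0.54. Adamts12 varied from 6.58 to 38.4 CPM among the PBS tumors and from 17.6 to 20.8 CPM among the GB2 tumors. The ADAMTS-like proteins share the ancillary domains of ADAMTS enzymes but have no protease domain, and several bind fibrillin. Adamtsl1, Adamtsl5 and Adamtsl4 had log2 fold changes of 0.51 ± 0.36, 0.49 ± 0.42 and 0.45 ± 0.25, and Adamtsl2 had -0.44 ± 0.39. Adamtsl1 was the member of this family whose groups did not overlap.

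The 4 inhibitors did not pass the unadjusted limits, and their groups overlapped in CPM. Timp1, which is induced in many inflamed tissues, stood at 16.1, 9.75 and 10.1 CPM in PBS and at 14.2, 14.7 and 15.7 CPM in GB2 tumors. On this scale the groups overlapped through PBS tumor 1, and the log2 fold change was 0.31 ± 0.25. Timp2, which takes part in the activation of the Mmp2 precursor at the cell surface, stood at 122, 120 and 123 CPM in PBS and at 162, 175 and 111 CPM in GB2 tumors. GB2 tumor 3 fell under all PBS tumors, and the log2 fold change was 0.29 ± 0.20. Timp3, which binds to the matrix and also inhibits Adam17, had a log2 fold change of 0.36 ± 0.20 with overlapping groups. Timp4, a rare inhibitor in these tumors at 0.0834 FPKM, had a log2 fold change of -0.70 ± 0.71 and overlaps Syn2 on the opposite strand, whose own value was 2.00. Without PBS tumor 1 the value of Timp4 was 0.24. The 4 unadjusted p-values in edgeR ran from 0.111 (Timp3) to 0.356 (Timp4).

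Summed over a family, FPKM gives a level per transcript length. The Mmp genes summed to 40.4, 38.3 and 46.4 FPKM in PBS and to 65.1, 55.9 and 57.5 FPKM in GB2 tumors, and the groups did not overlap. Without Mmp14 the Mmp sum was 12.1, 13.3 and 14.4 FPKM in PBS and 31.6, 26.9 and 30.2 FPKM in GB2 tumors. The Timp genes summed to 45.7, 43.7 and 46.7 FPKM in PBS and to 62.5, 63.4 and 51.1 FPKM in GB2 tumors, so this sum was also higher in every GB2 tumor. That separation holds only in the deposited FPKM: in CPM the Timp sum was 169, 159 and 174 in PBS and 219, 229 and 171 in GB2 tumors, and it overlapped. The Mmp sum was apart in CPM too, at 206 to 250 in PBS and 262 to 304 in GB2 tumors. Timp1 likewise separated the groups in FPKM, at 10.5 to 15.5 in PBS and 15.8 to 17.5 in GB2 tumors, but not in CPM. The ratio of the Mmp sum to the Timp sum was 0.883, 0.877 and 0.993 in PBS and 1.04, 0.881 and 1.13 in GB2 tumors, and it overlapped. With Mmp14 left out the ratio was 0.265, 0.304 and 0.309 in PBS and 0.505, 0.424 and 0.591 in GB2 tumors, with separate groups. That separation rests on leaving out Mmp14, the most abundant MMP, whose log2 fold change was -0.005, while every Timp gene was kept. The choice was made with earlier results of these data known, so it does not show a higher ratio of protease to inhibitor. These sums are ratios of RNA levels and were given no test.

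**Figure D4:**
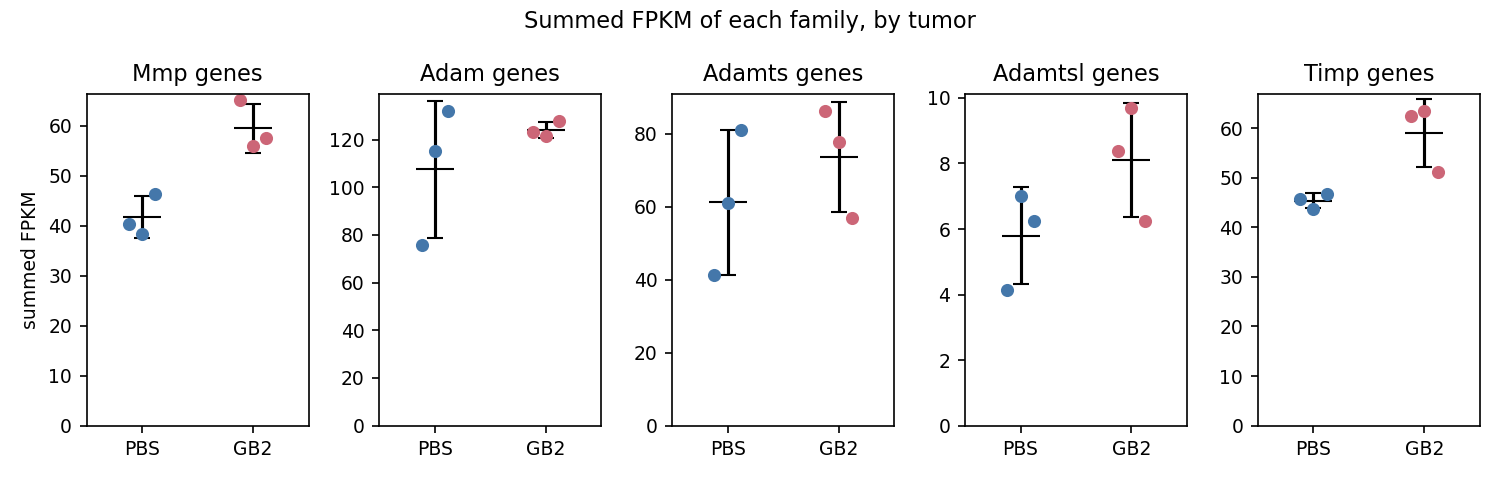
Summed FPKM of all genes of each family, 1 point for each tumor, with a horizontal line for the group mean and a bar for the SD (3 tumors a group). In FPKM the Mmp and Timp sums do not overlap between PBS and GB2 tumors, while the Adam, Adamts and Adamtsl sums do. In CPM the Timp sums overlap (174 in PBS tumor 3 and 171 in GB2 tumor 3).

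The most abundant members were not those that differed most. The members with the highest mean FPKM, Adamts1, Adam9, Timp2, Adam10 and Mmp14, at 29.2 to 47.5 FPKM, all had log2 fold changes from -0.008 to 0.53. The 8 members past the unadjusted limits had mean levels from 0.0988 FPKM (Adamts15) to 4.96 FPKM (Mmp2).

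**Figure D5:**
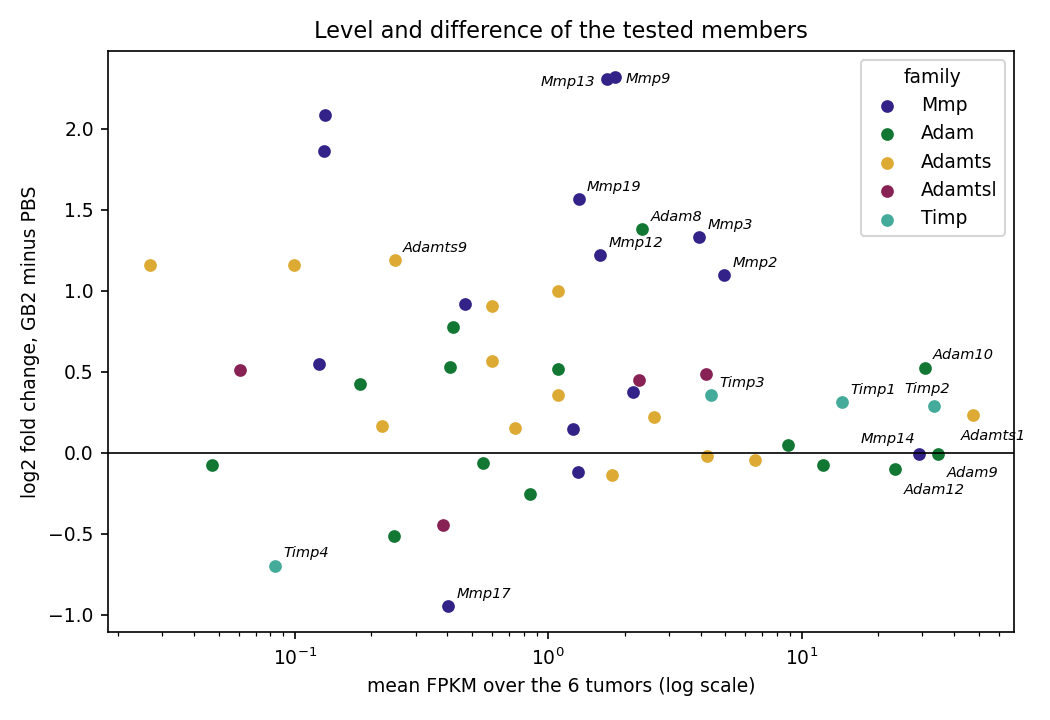
The log2 fold change (GB2 minus PBS, y axis) of the 51 tested members against the mean FPKM over the 6 tumors (x axis, log scale), colored by family. The members above 10 FPKM lie at or under 0.53 and the members with a log2 fold change above 1 lie under 5 FPKM.

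Of 35 regulators outside the families, 34 were tested, and 6 were higher and 0 lower at the unadjusted limits, against 3.74% and 0.918% of all genes tested. Among them were Fap (2.03 ± 0.44), a serine protease of activated fibroblasts, Tfpi2 (1.59 ± 0.48), a matrix-bound inhibitor of serine proteases, Pcsk5 (1.50 ± 0.51), a proprotein convertase, Plau (1.16 ± 0.36), the urokinase that makes plasmin, and Htra1 (1.09 ± 0.30), a secreted serine protease. Reck, a membrane-anchored inhibitor of MMPs, overlapped between the groups, with a log2 fold change of -0.18 ± 0.29. Bsg, an inducer of MMPs singled out after its values were seen, was lower in every GB2 tumor, at 776 to 1000.1 CPM against 1099 to 2008 CPM in PBS. Its log2 fold change of -0.70 ± 0.27 had an unadjusted p of 0.0329 in edgeR and did not reach the fold limit.

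Of 24 matrix proteins that these enzymes cut or process, 22 were tested, and 13 were higher and 1 lower at the unadjusted limits, read against the same 3.74% and 0.918%. Of the 24, 4 (Col1a1, Col1a2, Col3a1 and Dcn) are also fibroblast markers. The 6 with the smallest p were Thbs2 (2.54 ± 0.27), a matricellular thrombospondin, Spp1 (1.66 ± 0.25), the secreted phosphoprotein osteopontin, the fibrillar collagens Col3a1 (1.64 ± 0.23) and Col5a1 (1.41 ± 0.20), the proteoglycan Dcn (1.55 ± 0.23) and the microfibril protein Fbn1 (1.49 ± 0.23). Their adjusted p in edgeR was 0.186 for each. The lower one was Bcan, a proteoglycan of the nervous system, whose groups overlapped: 36.8 CPM in PBS tumor 3 against 2.07 to 8.93 CPM in the other 5 tumors. Of 26 membrane proteins that ADAMs release, 24 were tested, and 7 were higher and 0 lower, against the same shares. Among them were Trem2 (2.16 ± 0.36), a myeloid receptor, Tnfrsf1b (1.48 ± 0.31), a TNF receptor, Csf1r (2.01 ± 0.44), the macrophage growth factor receptor, Notch1 (1.10 ± 0.32), a Notch receptor, and Cdh5 (1.38 ± 0.43), the cadherin of endothelial cells. With limma on log2(FPKM + 1) far fewer regulators and substrates passed the unadjusted limits, as given with the processing below.

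Markers of several cell types moved with these results. Their counts past the unadjusted limits are all in the higher direction, in which 3.74% of all genes tested passed. The summed CPM of 12 macrophage markers was 68.3 to 98.0 in PBS and 272 to 377 in GB2 tumors, and 11 of 12 passed the unadjusted limits. Of these markers Csf1r and Mertk are also in the list of ADAM substrates. For 10 fibroblast markers it was 320 to 560 in PBS and 1067 to 1513 in GB2 tumors, and 10 of 10 passed, but 5 of these (Col1a1, Col1a2, Col3a1, Dcn and Fap) are also in the matrix or regulator lists. For 12 neutrophil markers, Mmp8 included, it was 2.49 to 4.50 in PBS and 9.64 to 12.8 in GB2 tumors, and 4 of the 7 tested passed, with Ly6g and Mpo at 0 in all tumors. For 10 endothelial markers it was 96.1 to 107 in PBS and 179 to 196 in GB2 tumors, and 5 of 10 passed, with Vwf also in the matrix list and Cdh5 among the ADAM substrates. For 7 osteoclast markers it was 17.6 to 36.5 in PBS and 50.1 to 55.3 in GB2 tumors, and 3 of 6 tested passed, with Ctsk also in the regulator list. For 7 mast cell markers it was 4.08 to 6.38 in PBS and 10.6 to 14.0 in GB2 tumors, and 2 of 4 tested passed. Most of this sum was Kit, which did not pass. Of the markers that passed, Tpsb2 (mast cells) had counts of 0, 0 and 12 in PBS and 33, 66 and 93 in GB2 tumors. Cxcr2 (neutrophils) had counts of 7, 17 and 10 in PBS and 52, 62 and 87 in GB2 tumors. Both had enough counts only through the GB2 tumors, so the filter itself favors a higher GB2 value in them. The part of the markers of all these cell types in the differences of Mmp9, Mmp13, Mmp2, Adam8 and the other members was not tested.

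Other marker lists moved less. Pericyte and smooth muscle markers summed to 81.3 to 94.0 CPM in PBS and 98.4 to 137 CPM in GB2 tumors, with 1 of 8 past the limits. Skeletal muscle markers, whose source was not tested, summed to 99.7 to 169 CPM in PBS and 213 to 241 CPM in GB2 tumors, with 1 of 8 past the limits. Adipocyte (16.3 to 67.3 and 60.4 to 82.8 CPM), skin (26.4 to 92.2 and 72.5 to 128 CPM) and T cell sums (0.467 to 6.09 and 0.691 to 4.01 CPM) overlapped between PBS and GB2 tumors.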

How the data were processed

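RNA of 6 tumors was sequenced as poly-A selected, paired-end libraries whose second strand carried dUTP. For each gene the authors deposited estimated counts and FPKM, 6 columns of each. As deposited, the estimated counts are whole numbers with no scaling, about 4 to a read pair, and FPKM as deposited are divided by transcript length and library total. The submitters' processing notes name cutadapt 1.9, HISAT2 2.2.1, StringTie 2.1.6, DESeq2, edgeR and mm10, with no roles. Counting by strand is not stated, so reads of overlapping genes (13 of 51 tested members overlap a gene of at least 10% of their count) cannot be assigned to one of them with certainty. Of the 67 members, 53 have the length of the GRCm38 annotation but 50 of these another start, so gene positions are those of the table. Promoter positions are GRCm38.p6.

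The test used edgeR 4.0.16 in R 4.3.3 (filterByExpr, minimum count 10, TMM, glmQLFit and glmQLFTest, no covariates), and p-values were adjusted over all genes tested. Standard errors come from the test statistic. The common dispersion gives a biological coefficient of variation of 40.5%. The script was tested on simulated counts. Alternatives were RLE factors, DESeq2 1.42.0, no filter, a minimum count of 40, counts divided by 4, the legacy quasi-likelihood fit, limma 3.58.1 on log2(FPKM + 1) and log2(FPKM + 0.1), a replicate block and leaving out each tumor. The members, the lists and the naming rule were chosen with earlier results of these data known. The rule names all Timp and tested Mmp genes. Of Adam, Adamts and Adamtsl genes it names those past the unadjusted limits, the 3 most abundant, the highest and lowest log2 fold change of each family, and 6 sheddases and aggrecanases. Of the other lists it names up to 6 past the limits with the smallest p, and Reck and Plau. Some genes of these lists are not reported here.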

Additional observations from a re-analysis of the deposited data

How the results depend on the processing

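Under edgeR 0 genes were called, in the main fit and in every edgeR and limma alternative, while DESeq2 called 372. The 8 members past the unadjusted limits were all kept with RLE factors, DESeq2, no filter, a minimum count of 40, counts divided by 4, the legacy fit and the replicate block. The count was 4 with limma on log2(FPKM + 1), without Mmp2, Mmp19, Adamts9 and Adamts15. The added 1 shrinks fold changes of genes at low FPKM, and it brought Mmp2, Mmp19 and Adamts9 under the fold limit. It was 10 with limma on log2(FPKM + 0.1), 6 of them among the 8, without Adamts9 and Adamts15. The mean FPKM of Adamts15 was under the minimum of 0.1 for both limma fits. The count was between 6 and 10 with 1 tumor left out. The median of the Mmp genes was 0.32 with limma on log2(FPKM + 1) and from 0.87 (without PBS tumor 3) to 1.37 (without PBS tumor 1) with 1 tumor left out. Regulators and substrates past the limits numbered 27, and 11 with limma on log2(FPKM + 1). Mmp2 failed the unadjusted limits without GB2 tumor 3.

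Of the named genes 12 changed sign, most with values near 0 and Mmp17 and Timp4 with 1 tumor left out. With DESeq2 and with no filter, Mmp14 was 0.0041 and 0.0065 and Adam9 0.0012 and 0.0007. With limma on log2(FPKM + 1) and log2(FPKM + 0.1), Mmp14 was 0.073 and 0.076, Adam9 0.064 and 0.066, Adam12 0.16 and 0.18, Adam17 0.0040 and 0.0041, Adamts4 0.054 and 0.069, Adamts10 0.084 and 0.12, and Adamts12 0.068 and 0.23. Over fits with 1 tumor left out, the log2 fold change ran Timp4 from -1.24 to 0.24, Mmp15 from -0.28 to 0.80, Mmp14 from -0.11 to 0.066, Mmp23 from -0.52 to 0.11, Mmp17 from -1.41 to 0.53, Adam9 from -0.13 to 0.14, Adam12 from -0.46 to 0.44, Adamts4 from -0.24 to 0.20, Adamts10 from -0.27 to 0.19, Adamts12 from -0.55 to 0.63, Adam17 from -0.13 to 0.010 and Reck from -0.50 to 0.041.

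Deviations of same-numbered tumors from their group means had correlations of 0.03, 0.15 and -0.25 for numbers 1 to 3. With 3 tumors a group these cannot settle whether such tumors share more than a number, and the labels do not say. With the replicate block 12 members passed the unadjusted limits, 8 of them shared with the fit without it, 0 genes were called, and Adam12, Adamts10 and Adamts12 turned to 0.092, 0.040 and 0.19. The cause of these changes was not tested. Over 812 alternative values of 55 genes, 43 values of 12 genes changed sign. With 3 tumors a group and a coefficient of variation of 40.5%, genes with few counts, such as Mmp8 and Mmp27, have wide errors.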

Other observations

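Members differed in how far tumors of 1 group lay apart. Among the PBS tumors the highest level was 11.4 times the lowest in Mmp10, 10.7 times in Mmp17 and 5.84 times in Adamts12, and among the GB2 tumors 4.51, 1.80 and 1.19 times. For Mmp17 and Adamts12 PBS tumor 3 was the highest, and for Mmp10 PBS tumor 1. In Timp2 the order was the other way, 1.02 times in PBS and 1.58 times in GB2 tumors. Adamts16, which had too few counts for the test, was listed at 0, 0.114 and 0.113 CPM in PBS and at 0.119, 0.216 and 0.682 CPM in GB2 tumors. It was singled out after its values were seen.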
